A study of Mus musculus with 6 samples.

Results

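The genes described here encode hormones of the enteroendocrine cells of the gut and the enzymes that make serotonin there. They are 10 genes chosen by symbol, out of the 52550 Ensembl gene identifiers in each deposited table. Gcg, Pyy and Insl5 encode peptides of the colonic L cell, Tph1 and Ddc the enzymes of serotonin synthesis, and Sct, Sst, Nts, Tac1 and Cck the other enteroendocrine peptides. All 10 symbols matched a row. RNA was sequenced from colon epithelial cells of adult male mice aged 5 to 6 weeks. In the first group, 3 libraries came from Apc Min/+ mice given atorvastatin at 20 mg/kg by gavage on alternate days. In the second, 3 libraries came from Apc Min/+ mice given the vehicle, 2% Tween 80, on the same schedule. Every animal thus carried the Min allele, a truncating germline mutation in 1 copy of the tumour suppressor Apc, and no mice with intact Apc are compared. The libraries are numbered as replicates, and the labels do not say whether each is a separate animal or a pool, so p-values measure only the spread between these libraries, which may be technical.

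Enteroendocrine cells are scattered, hormone-secreting cells of the intestinal epithelium that release peptides or serotonin in response to nutrients and microbial products. L cells, which are frequent in the colon, cut proglucagon into the glucagon-like peptides, which promote insulin secretion and mucosal growth, and also release peptide YY, which reduces appetite. Enterochromaffin cells hydroxylate tryptophan with the TPH1 enzyme and decarboxylate the product with DDC to give serotonin, which stimulates motility. The series title concerns tryptophan breakdown products of the microbiota, and tryptophan is also the substrate of TPH1.

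The hormone whose level differed most between the groups was Gcg, and the promoter sequences below are shown for Gcg, for Pyy, the other L cell gene whose groups did not overlap, and for Sct, a known target gene of the enteroendocrine transcription factor NEUROD1. Each is the 250 bases before the transcription start in RefSeq, on the GRCm38.p6 build, written 5′ to 3′ on the minus strand that carries the gene. Capitals mark the E-box letters CANNTG, the core bound by NEUROD1 and other basic helix-loop-helix factors, and the TATA-box letters TATAAA, each searched on both strands. The windows are chr2:62483654-62483903 for Gcg, chr11:102107833-102108082 for Pyy and chr7:141279134-141279383 for Sct.
Gcg: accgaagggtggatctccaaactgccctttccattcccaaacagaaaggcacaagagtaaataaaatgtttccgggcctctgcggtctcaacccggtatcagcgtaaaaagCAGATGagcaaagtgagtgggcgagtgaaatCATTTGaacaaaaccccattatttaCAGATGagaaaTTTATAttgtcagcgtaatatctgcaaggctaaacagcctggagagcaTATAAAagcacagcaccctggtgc
Pyy: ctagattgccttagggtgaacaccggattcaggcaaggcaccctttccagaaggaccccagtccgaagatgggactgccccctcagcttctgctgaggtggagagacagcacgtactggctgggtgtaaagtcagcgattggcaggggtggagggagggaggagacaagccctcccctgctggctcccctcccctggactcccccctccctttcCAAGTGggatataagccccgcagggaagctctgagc
Sct: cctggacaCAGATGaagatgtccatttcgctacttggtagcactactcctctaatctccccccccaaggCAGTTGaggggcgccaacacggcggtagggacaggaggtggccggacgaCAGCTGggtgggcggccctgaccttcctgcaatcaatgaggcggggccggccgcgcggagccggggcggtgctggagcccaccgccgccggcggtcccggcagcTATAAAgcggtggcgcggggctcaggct

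The Gcg window held 3 E-box matches and 2 TATA-box matches, the Pyy window 1 and 0, and the Sct window 3 and 1. No E-box match overlapped a TATA-box match in these windows. Among 32851 RefSeq promoter windows of 250 bases, 66.2% held at least 1 E-box match and 12.4% a TATA-box match, so the E-box letters are common. The Tph1 and Ddc windows held no E-box match. These matches are letters in a window, and binding was not measured.

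Values are FPKM, fragments scaled by transcript length and by the mapped total, so levels can be compared between genes. FPKM totals ran from 407857 to 430832 per library, with 11456 to 11655 genes reaching 1 FPKM. Read totals are unknown, although the commonest ratio of low values to control replicate 1 put the relative depth at 0.996 to 1.14, with control replicate 3 the deepest. The precision of low values is known only from the spread between libraries. The test was limma on log2(FPKM + 1), which compresses differences of genes near 1 FPKM, over the 11644 genes that reached 1 FPKM in 3 or more libraries. Of the 10 genes, 9 passed that filter, each with at least 2 control libraries at 1 FPKM or more, and Cck did not. Over all tested genes, 0.155% were called higher with atorvastatin at a Benjamini-Hochberg adjusted p under 0.05, the groups failed to overlap for 12.0% (atorvastatin higher) and 6.05% (atorvastatin lower) of tested genes, and the median log2 difference was 0.018. Against these figures, 1 of the 9 tested genes was called (Gcg, higher) and 2 of 9 did not overlap (Gcg and Pyy, both higher). An unadjusted limma p under 0.05 with atorvastatin higher was found for 4 of 9 (Gcg, Pyy, Insl5 and Ddc), against 7.75% of all tested genes. All 9 had positive log2 differences, with a median of 0.24, where 57.3% of all tested genes were positive. Without atorvastatin replicate 2, 8 of 9 were positive.

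**Figure D1:**
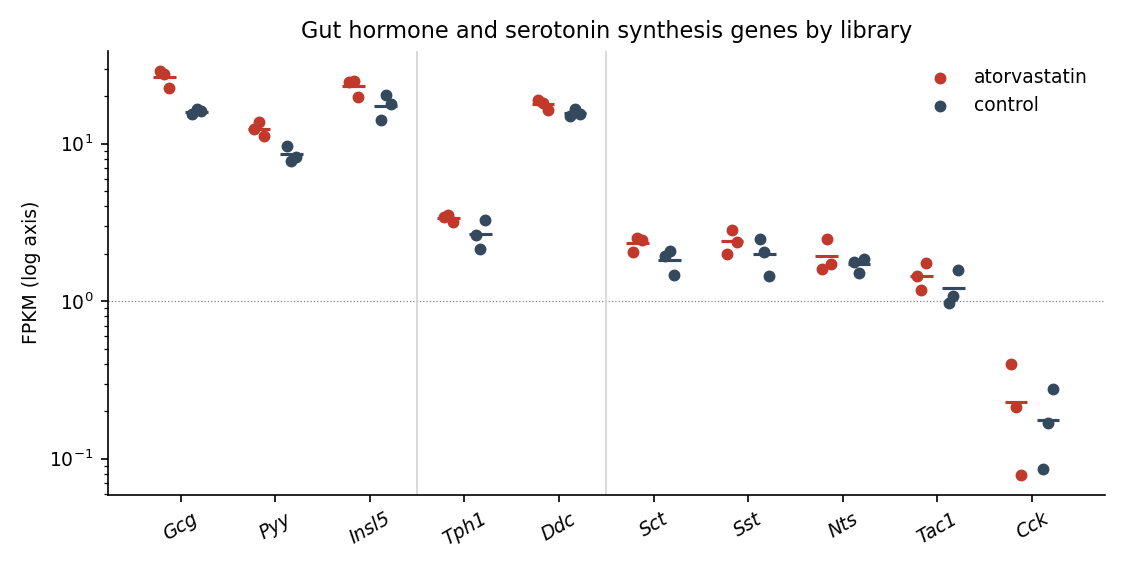
FPKM of the 10 genes in every library on a log axis, with atorvastatin libraries in red to the left of control libraries in dark blue and bars at the group means; the dotted line marks 1 FPKM. Gcg, Insl5, Ddc and Pyy lie between 7.81 and 29.0 FPKM, and Cck lies below 1 FPKM in every library.

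Gcg and the other L cell peptides had the largest log2 differences of the 9 tested genes. Gcg, which encodes proglucagon (ENSMUSG00000000394, chromosome 2, 62474530 to 62483650, minus strand, GRCm38), had 29.0, 27.8 and 22.6 FPKM in atorvastatin replicates 1, 2 and 3, against 15.3, 16.6 and 16.04 FPKM in control replicates 1, 2 and 3. The groups did not overlap, and the lowest atorvastatin library, replicate 3, still lay above every control library. Gcg averaged 26.5 ± 3.37 FPKM with atorvastatin and 15.996 ± 0.629 FPKM in control (SD, n = 3 each), a ratio of 1.65. Its log2 difference was 0.69 with a 95% interval of 0.47 to 0.90, and it rose by limma's test (limma adjusted p = 0.0402, position 38 of all tested genes by p). The call depended on single libraries: the limma adjusted p was 0.113, 0.0955 and 0.0178 without atorvastatin replicates 1, 2 and 3, and 0.167, 0.0984 and 0.0728 without control replicates 1, 2 and 3. The size of the difference was 0.62 to 0.79 over these fits, and every one of them gave atorvastatin as higher. In bulk RNA, more L cells and more Gcg RNA in each cell cannot be told apart.

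Pyy, which encodes peptide YY (ENSMUSG00000017311, chromosome 11, 102106676 to 102107832, minus strand), had 12.3, 13.8 and 11.3 FPKM with atorvastatin, against 9.65, 7.81 and 8.28 FPKM in control. The groups were separate, with control replicate 1 the closest to the atorvastatin libraries. The ratio of the means was 1.45 and the log2 difference 0.49 (95% interval 0.27 to 0.71), which did not pass over all genes (limma adjusted p = 0.0974), nor in any of the 16 alternatives run. Insl5, which encodes the insulin-like peptide of colonic L cells that signals through the receptor RXFP4 (ENSMUSG00000066090, chromosome 4, 103017872 to 103026842, minus strand), had 24.8, 24.8 and 19.7 FPKM with atorvastatin, against 14.1, 20.4 and 17.7 FPKM in control. Atorvastatin replicate 3 lay inside the control range, so the groups overlapped. The log2 difference of Insl5 was 0.40 (0.06 to 0.73, limma adjusted p = 0.336). Summed over the 3 L cell hormones, the level was 66.1, 66.4 and 53.6 FPKM with atorvastatin, against 39.1, 44.8 and 42.1 FPKM in control.

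On the log2(FPKM + 1) scale the serotonin enzymes differed less, and they did not pass. Tph1, which encodes the tryptophan hydroxylase that limits the rate of serotonin synthesis outside the nervous system (ENSMUSG00000040046, chromosome 7, 46644641 to 46672537, minus strand), had 3.42, 3.52 and 3.17 FPKM with atorvastatin, against 2.63, 2.15 and 3.30 FPKM in control. Control replicate 3 exceeded atorvastatin replicate 3, so the groups overlapped, and the SD was 0.179 FPKM with atorvastatin and 0.577 FPKM in control (n = 3 each). The log2 difference of Tph1 was 0.26, with an interval of -0.01 to 0.52 that includes both 0 and the value of Insl5 (limma adjusted p = 0.432). The scale compresses low genes: the ratio of means was 1.25 for Tph1 and 1.28 for Sct, near the 1.33 of Insl5. With a pseudocount of 0.1 the log2 differences of Tph1, Sct and Insl5 were 0.34, 0.35 and 0.41. Ddc, which encodes the aromatic amino acid decarboxylase (ENSMUSG00000020182, chromosome 11, 11814101 to 11898144, minus strand), had 18.8, 18.1 and 16.3 FPKM with atorvastatin, against 15.0, 16.7 and 15.4 FPKM in control. Atorvastatin replicate 3 lay below control replicate 2, so these groups overlapped, and the log2 difference was 0.17 (0.00 to 0.33, limma adjusted p = 0.405). Ddc averaged 17.8 FPKM with atorvastatin and 15.7 FPKM in control, above Tph1 in every library. Ddc is also expressed by absorptive epithelial cells, so its level does not report enterochromaffin cells alone.

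Of the other peptides, none passed and all groups overlapped. Sct, which encodes secretin, a stimulant of bicarbonate secretion (chromosome 7, 141278330 to 141279133), had 2.06, 2.51 and 2.44 FPKM with atorvastatin, against 1.93, 2.10 and 1.46 FPKM in control. Only control replicate 2 reached above the lowest atorvastatin library, and the log2 difference was 0.24 (interval -0.002 to 0.49, limma adjusted p = 0.419). Sst, which encodes somatostatin, the inhibitory peptide of D cells (chromosome 16, 23889573 to 23890958), had 1.99, 2.83 and 2.36 FPKM with atorvastatin, against 2.49, 2.05 and 1.44 FPKM in control. The Sst ranges overlapped widely, with a log2 difference of 0.19 (-0.16 to 0.53, limma adjusted p = 0.697). Tac1, the precursor of substance P and a product of enterochromaffin cells and enteric neurons (chromosome 6, 7554879 to 7565834, plus strand), had 1.44, 1.18 and 1.74 FPKM with atorvastatin, against 0.976, 1.08 and 1.59 FPKM in control. Control replicate 3 lay above atorvastatin replicates 1 and 2, and the log2 difference of Tac1 was 0.15 (-0.15 to 0.45, limma adjusted p = 0.723). Nts, which encodes neurotensin (chromosome 10, 102481756 to 102490486), had 1.61, 2.47 and 1.71 FPKM with atorvastatin, against 1.79, 1.52 and 1.86 FPKM in control. Its log2 difference of 0.10 (-0.18 to 0.38, limma adjusted p = 0.817) rested on atorvastatin replicate 2, without which it was -0.031. Cck, which encodes cholecystokinin, a peptide chiefly of the small intestine (chromosome 9, 121489824 to 121495694), had 0.400, 0.212 and 0.0793 FPKM with atorvastatin, against 0.0866, 0.168 and 0.275 FPKM in control. The ranges overlapped, and every Cck value lay under 1 FPKM.

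**Figure D2:**
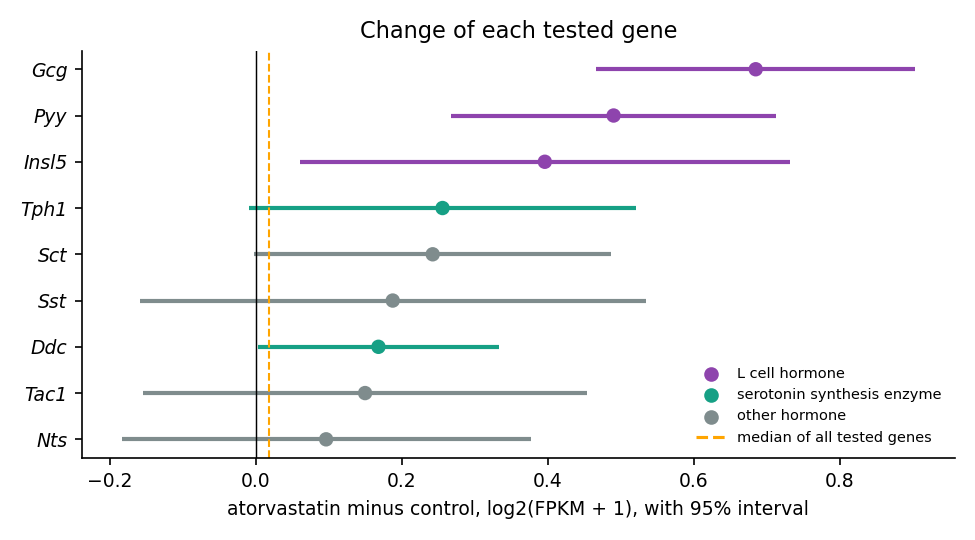
Difference in log2(FPKM + 1), atorvastatin minus control, of the 9 tested genes (points) with limma's 95% interval (lines), coloured by role; the dashed line marks the median of all tested genes. On this scale, which compresses genes near 1 FPKM, the 3 L cell hormones have the largest estimates, 0.40 to 0.69. The interval of Gcg (0.47 to 0.90) overlaps those of Pyy, Insl5, Sct, Sst and Tph1 (-0.01 to 0.52). It does not overlap those of Ddc (0.00 to 0.33), Nts (-0.18 to 0.38) and Tac1 (-0.15 to 0.45).

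The order of levels was nearly the same in both groups, with an exchange at the top. With atorvastatin the order by mean FPKM was Gcg, Insl5, Ddc, Pyy, Tph1, Sst, Sct, Nts, Tac1 and Cck. In control it was Insl5, Gcg, Ddc, Pyy and then the same sequence. In atorvastatin libraries, Insl5 and Ddc, Ddc and Pyy, Pyy and Tph1, Tph1 and Sst, and Tac1 and Cck had separate ranges. The neighbours Gcg and Insl5, Sst and Sct, Sct and Nts, and Nts and Tac1 overlapped. In control libraries the ranges of Gcg, Insl5 and Ddc overlapped with their neighbours, as did those from Tph1 down to Tac1, while Ddc lay above Pyy, Pyy above Tph1, and Tac1 above Cck. Gcg therefore lay above Ddc in every atorvastatin library, at 22.6 FPKM or more against 18.8 FPKM or less. In control, Gcg and Ddc averaged 15.996 and 15.7 FPKM and overlapped.

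To set the L cell hormones against the serotonin enzyme, the levels of a pair of genes were compared within each library, as a ratio of FPKM, in which any scaling of the library cancels, and as a difference of log2(FPKM + 1). The FPKM ratio of Gcg to Tph1 was 8.46, 7.89 and 7.13 with atorvastatin, against 5.84, 7.73 and 4.87 in control. Control replicate 2 lay above atorvastatin replicate 3, so these ratios overlapped. For log2(FPKM + 1), Gcg minus Tph1 was 2.64 ± 0.13 with atorvastatin and 2.21 ± 0.25 in control (SD, n = 3 each), a difference of 0.43, and on this scale the groups did not overlap. The ratio of Pyy to Tph1 was 3.603, 3.91 and 3.55 with atorvastatin, against 3.68, 3.64 and 2.51 in control. Those FPKM ratios overlapped. On the log2(FPKM + 1) scale Pyy minus Tph1 differed by 0.23, with the lowest atorvastatin library at 1.5548 and the highest control library at 1.5547, so the groups were barely separate. Without control replicate 3 that difference was 0.098. The ratio of Insl5 to Tph1 was 7.23, 7.06 and 6.22 with atorvastatin, against 5.38, 9.48 and 5.38 in control, where control replicate 2 was the highest of all libraries. The log2 difference of Insl5 minus Tph1 was 0.14, and 0.36 without that library. With a pseudocount of 0.1 it was 0.079.

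Within the L cell hormones, the ratio of Gcg to Insl5 was 1.17, 1.12 and 1.15 with atorvastatin, against 1.09, 0.815 and 0.904 in control. All atorvastatin libraries were above all control libraries, and the difference of the log2 values was 0.29. The ratio of Gcg to Pyy was 2.35, 2.02 and 2.01 with atorvastatin, against 1.59, 2.13 and 1.94 in control, with overlap, and the log2 difference of 0.19 was 0.088 without control replicate 1. In two-sided exact permutation tests over libraries the unadjusted p was 0.1 for Gcg minus Tph1, Pyy minus Tph1 and Gcg minus Insl5, which is the smallest value that 3 libraries against 3 allow. It was 0.3 for Gcg minus Pyy and 0.6 for Insl5 minus Tph1. Adjusted over the 5 differences, the exact permutation p was 0.167 for each of the first named, 0.375 for Gcg minus Pyy and 0.6 for Insl5 minus Tph1. With the smaller pseudocounts of 0.5 and 0.1, the unadjusted exact permutation p was 0.2 and 0.2 for Gcg minus Tph1 and 0.2 and 0.5 for Pyy minus Tph1, while Gcg minus Insl5 stayed at 0.1. The exact permutation test of 3 libraries against 3 cannot pass a threshold of 0.05.

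**Figure D3:**
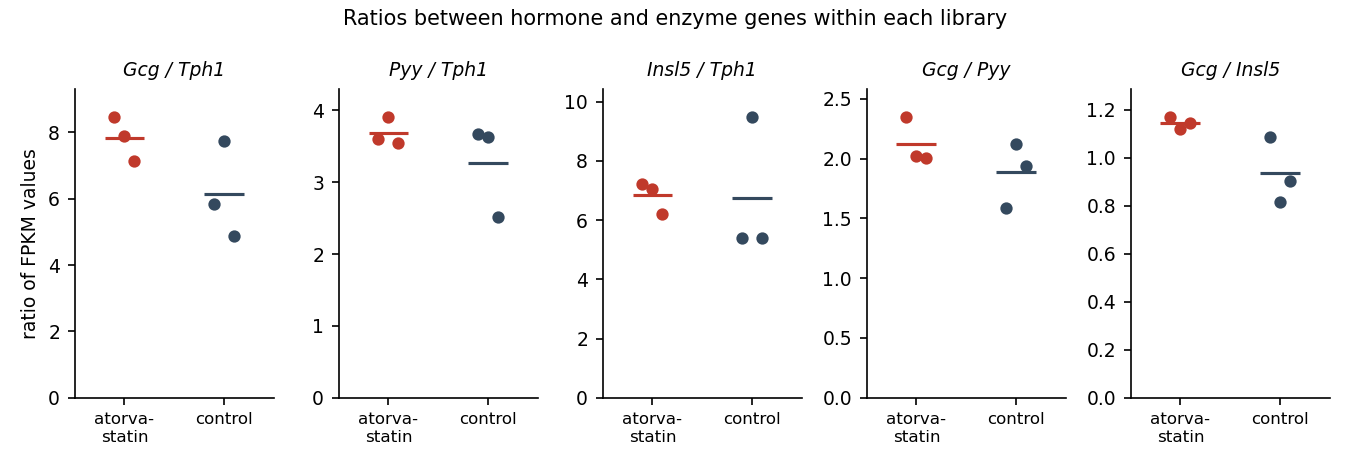
Ratio of FPKM values between pairs of genes in every library, atorvastatin (red) left of control (dark blue), with bars at the group means. The ratio of Gcg to Insl5 is separate between the groups (1.12 to 1.17 with atorvastatin, 0.815 to 1.09 in control), and the other ratios overlap.

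How alike the genes were over the 6 libraries was measured as the root mean square difference of their log2(FPKM + 1) profiles, each centred on its mean. Gcg lay nearest to Pyy (0.165) and Insl5 (0.185) among the 10 genes and 0.263 to 0.348 from the rest. Pyy in turn lay 0.187 from Tph1 and 0.1997 from Sct, and Insl5 lay closer to Ddc (0.163) than to Gcg. The L cell hormones thus did not form a group apart from the other genes by this measure. It takes in the size of the difference between groups, so it cannot show whether genes vary together inside a group. Among 6628 tested genes averaging 5 FPKM or more, the 3 profiles nearest to Gcg were Pclaf (0.141), Tubb5 (0.145) and Rdh11 (0.149). Those nearest to Pyy were Fdps (0.0717), Slc39a4 (0.0843) and Smoc2 (0.0970), and those nearest to Insl5 were Hirip3 (0.0852), Ndc80 (0.0906) and Nusap1 (0.103). The nearest to Tph1 were Cip2a (0.0564) and the predicted genes Gm15387 (0.0605) and Gm21596 (0.0610). With 6 libraries and 6628 genes compared, near profiles are easily found, and reads of the predicted genes may be shared with near-identical copies.

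Among genes around the serotonin pathway, a cofactor enzyme fell while the synthesis enzymes did not pass. Qdpr encodes dihydropteridine reductase, which regenerates tetrahydrobiopterin, the cofactor of tryptophan hydroxylase and of the other aromatic amino acid hydroxylases (ENSMUSG00000015806, chromosome 5, 45434021 to 45450236, minus strand). It had 15.2, 19.7 and 19.7 FPKM with atorvastatin, against 33.0, 32.4 and 31.5 FPKM in control. The control libraries were tightly grouped and every atorvastatin library lay well below them, at a ratio of means of 0.564. Its log2 difference was -0.80 (95% interval -1.04 to -0.57, limma adjusted p = 0.0290), where 0.249% of all tested genes were called lower. Without single libraries its adjusted p was 0.0299, 0.0396 and 0.0670 (atorvastatin replicates 1, 2 and 3) and 0.139, 0.0941 and 0.0579 (control replicates 1, 2 and 3), at -0.86 to -0.68. An annotated antisense gene, Gm42413, overlaps a Qdpr exon and was listed at 0 in every library, and the strand setting of the counting is not given. Qdpr lay above Tph1 in every library, and whether the Qdpr difference lay in cells that express Tph1 was not tested.

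Qdpr was the only gene called of the list of 12 serotonin handling and cofactor genes, of which 9 were tested. On that list 4 log2 differences were positive and 5 negative, with a median of -0.01. The other tetrahydrobiopterin genes overlapped between the groups. Gch1, the first enzyme of its synthesis, averaged 5.92 FPKM with atorvastatin and 6.23 FPKM in control, and Pcbd1, which recycles the cofactor, averaged 16.1 FPKM with atorvastatin and 15.03 FPKM in control. Slc6a4, the serotonin reuptake transporter, averaged 3.07 ± 0.07 FPKM with atorvastatin and 3.14 ± 0.66 FPKM in control, and Maoa, which degrades serotonin, 270.5 ± 21.8 FPKM with atorvastatin and 256 ± 15.98 FPKM in control. Slc18a1, the vesicular transporter that loads serotonin into enterochromaffin granules, was under the filter, with 0.755, 0.751 and 0.678 FPKM with atorvastatin, against 0.643, 0.620 and 0.592 FPKM in control. The neuronal hydroxylase gene Tph2 was listed at 0 in every library.

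**Figure D4:**
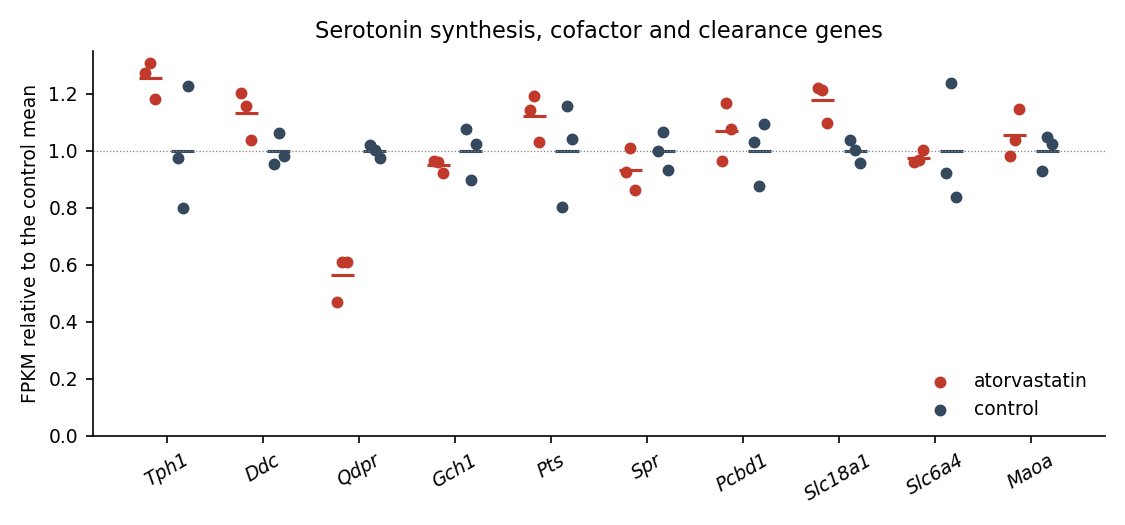
FPKM of serotonin synthesis, cofactor and clearance genes in every library, divided by the gene's control mean, with atorvastatin (red) left of control (dark blue) and bars at group means. Qdpr lies at a ratio of means of 0.564, below all control libraries, while the other genes lie near 1 or overlap, apart from Slc18a1, which was under the filter.

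Of the genes that pack and process hormones, Resp18 alone was called, where 0.155% of all tested genes were called higher. Of 9 granule genes, 3 were tested, and in all 3 atorvastatin lay wholly above control, as in 12.0% of all tested genes. Resp18, a granule protein gene of neuroendocrine cells, had 2.42, 2.73 and 2.39 FPKM with atorvastatin, against 1.14, 0.944 and 1.24 FPKM in control, and rose (log2 difference 0.74, 0.55 to 0.93, limma adjusted p = 0.0210). Leaving out atorvastatin replicate 1 or 3 or control replicate 1 ended that call (limma adjusted p = 0.0687, 0.0670 and 0.0811), and its antisense neighbour Gm28902, which shares exonic sequence, was listed at 0. Chga, a granin that marks enteroendocrine cells, had 20.7, 17.4 and 17.1 FPKM with atorvastatin, against 13.1, 12.0008 and 14.3 FPKM in control. Chga and its relative Chgb had log2 differences of 0.45 and 0.38 and did not pass (limma adjusted p = 0.112 and 0.156). Of 6 prohormone processing genes, 3 were tested and none called. Cpe, the carboxypeptidase that trims hormone precursors, had 3.13, 2.51 and 3.11 FPKM with atorvastatin, against 1.72, 2.17 and 2.09 FPKM in control (log2 difference 0.39, limma adjusted p = 0.168). Pcsk1, whose product cuts proglucagon into the glucagon-like peptides, overlapped, at 3.35, 3.31 and 2.63 FPKM with atorvastatin, against 2.67, 2.56 and 3.08 FPKM in control (log2 difference 0.12, limma adjusted p = 0.704). Pcsk2, whose product would cut it to glucagon, was listed at 0 in every library.

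Of 19 transcription factors linked to enteroendocrine cells, 6 passed the filter and none was called, at a median log2 difference of 0.05. The 6 included Foxa1, Cdx2 and Atoh1, which other epithelial cells also express. Factors more restricted to the lineage were low. Neurod1, which acts in differentiating enteroendocrine cells, had 0.821, 0.724 and 0.816 FPKM with atorvastatin, against 0.607, 0.521 and 0.502 FPKM in control. Isl1, a homeodomain factor of enteroendocrine cells, had 0.377, 0.430 and 0.314 FPKM with atorvastatin, against 0.190, 0.213 and 0.0684 FPKM in control. Both were separate between groups and neither was tested. Over the 7 lists of other peptides, receptors, sensors, transcription factors, granule, processing and serotonin handling genes, 34 genes lay under the filter but averaged 0.1 FPKM or more, and in 8 of them atorvastatin lay wholly above control: Slc18a1, Neurod1, Isl1, Insm1, Etv1, Scg5, Scg2 and Olfr78. In none did it lie wholly below. Among all 5703 such low genes, 8.22% lay wholly above and 6.80% wholly below.

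**Figure D5:**
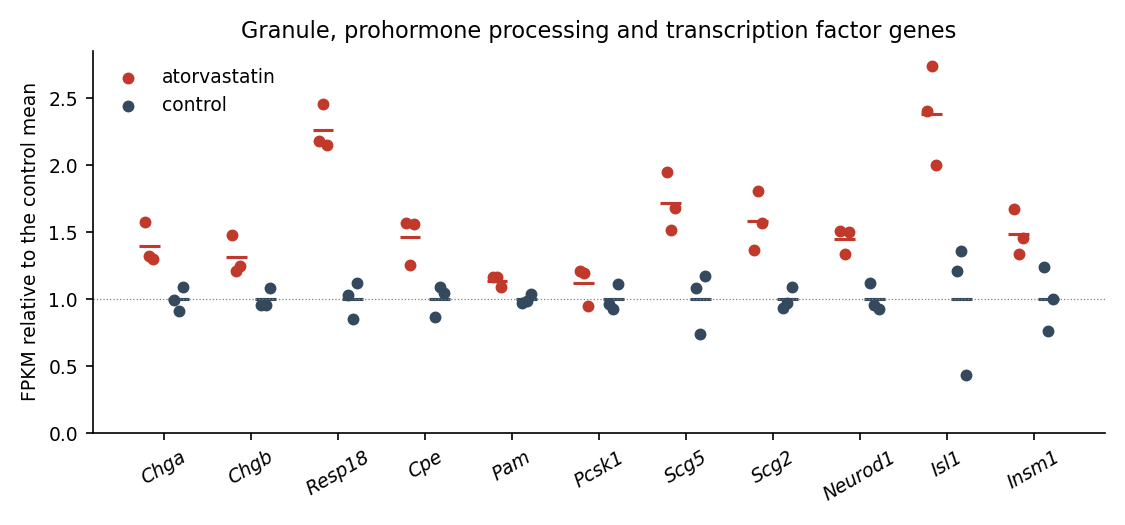
FPKM of granule, prohormone processing and transcription factor genes in every library, divided by the gene's control mean, with atorvastatin (red) left of control (dark blue) and bars at group means. Resp18 has the widest separation among the tested genes shown, Pcsk1 overlaps, and Scg5, Scg2, Neurod1, Isl1 and Insm1 lie under 1 FPKM.

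No receptor, sensor or peptidase gene was called. Of 26 hormone receptor genes 3 were tested and none called, and 7 were listed at 0 in every library. Sstr1, a somatostatin receptor, averaged 4.43 ± 0.67 FPKM with atorvastatin and 3.09 ± 0.23 FPKM in control (log2 difference 0.40, limma adjusted p = 0.168), without overlap. Npy1r, a receptor for peptide YY, averaged 2.09 ± 0.56 FPKM with atorvastatin and 1.37 ± 0.15 FPKM in control (limma adjusted p = 0.332). The receptors of the glucagon-like peptides, Glp1r and Glp2r, did not exceed 0.106 FPKM in any library. Of 21 nutrient and bile acid sensor genes 5 were tested and none called. Ffar4, a receptor for long-chain fatty acids, had 4.90, 7.44 and 4.94 FPKM with atorvastatin, against 6.80, 6.75 and 8.30 FPKM in control. Ffar2, a receptor for short-chain fatty acids, averaged 3.15 FPKM with atorvastatin and 3.09 FPKM in control. Among 8 peptidases that break down hormones, 7 were tested and none called. Ace, which had the smallest p on that list, had 3.32, 3.799 and 3.03 FPKM with atorvastatin, against 5.39, 4.11 and 4.34 FPKM in control, without overlap (log2 difference -0.36, limma adjusted p = 0.238). Dpp4, which inactivates glucagon-like peptide, averaged 7.65 FPKM with atorvastatin and 6.996 FPKM in control. Of 19 other gut peptide genes 3 were tested (Adm, Guca2a and Guca2b), with a median log2 difference of 0.02, and Gip, Vip and Gal were listed at 0.

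Markers of other cells differed between the groups to varying degrees. Epithelial markers were abundant, with Epcam at 536, 514 and 479 FPKM with atorvastatin, against 565, 565 and 534 FPKM in control, with overlap, and the 5 epithelial markers summed to 5015 to 5166 FPKM with atorvastatin and 5273 to 5376 FPKM in control. All 8 tested markers of proliferation had positive log2 differences (median 0.39), where 57.3% of all tested genes were positive. Mcm5 and Mcm6 were called higher, as were 0.155% of all tested genes. The summed level of the 8 was 151 to 178 FPKM with atorvastatin and 110 to 137 FPKM in control, without overlap. Of 6 stem cell markers 4 were tested and none called. Smoc2, Axin2 and Rnf43 had log2 differences of 0.34, 0.21 and 0.13, and Lgr5 passed the filter only through the atorvastatin libraries, so its sign was fixed by the filter. Goblet cell markers (8 tested, median 0.15) and absorptive markers (10 tested, median -0.07) held no call. The part of cell composition in the Gcg result was not tested.

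Mast cells of mice also express Tph1, and none of their 3 tested markers was called. Mcpt1, a protease of mucosal mast cells, had 1.36, 1.31 and 1.48 FPKM with atorvastatin, against 9.46, 12.1 and 4.37 FPKM in control, without overlap (log2 difference -1.92, limma adjusted p = 0.0720). Without control replicate 3, its lowest control library, Mcpt1 was called (log2 difference -2.30, limma adjusted p = 0.00511). Mcpt2, a related protease, passed the filter only through the control libraries. The 11 mast cell markers summed to 8.75 to 11.1 FPKM with atorvastatin and 14.1 to 26.1 FPKM in control. Most of the atorvastatin sums was Kit, with 7.38, 7.90 and 6.20 FPKM, against 7.16, 7.35 and 6.92 FPKM in control. The log2 difference of Kit was -0.003, and whether its RNA came from mast cells was not tested. Cpa3 was listed at 0 with atorvastatin and at 0.140 to 0.267 FPKM in control. Of the 3 tested markers, Mcpt1 and Mcpt2 lay wholly below control, as did 6.05% of all tested genes. Under the filter, Cpa3, Tpsab1, Fcer1a and Hdc also lay wholly below control. Each of these averaged under 0.1 FPKM over the 6 libraries. No share over all genes was computed at such low levels, so they have no background to be set against. None of the 11 mast cell markers lay wholly above control. The 12 leukocyte markers summed to 11.9 to 13.3 FPKM with atorvastatin and 17.4 to 31.8 FPKM in control, and none of the 8 tested was called. The 4 that reached 1 FPKM in every library, Lck, Nkg7, Gzmb and Igkc, had log2 differences of -0.32, -0.54, -0.80 and -1.26, and Igha passed the filter only through the control libraries. The part of mast cells in the Tph1 level was not tested. No marker of enteric neurons, enteric glia or tuft cells passed the filter: the 12 neuron markers summed to 0.712 to 0.884 FPKM with atorvastatin and 0.576 to 0.839 FPKM in control, and Hand2 and Stmn2 were listed at 0. The 6 glia markers summed to 0.256 FPKM or less with atorvastatin and 0.314 FPKM or less in control, and the 8 tuft cell markers to 1.67 FPKM or less with atorvastatin and 1.86 FPKM or less in control. Stromal markers summed to 1.56 to 1.77 FPKM with atorvastatin and 1.39 to 2.55 FPKM in control. Of the pancreatic islet markers, Ins1 and Ins2 were listed at 0.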

How the data were processed

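RNA of colon epithelial cells was sequenced in 6 libraries, 3 per group, as the labels give them. Bowtie, FastQC 0.11.2 and build mm10 are named in the submitters' processing notes. How fragments were assigned to genes, and with which annotation and strand setting, is not given in the sources used here. In each table the authors deposited 1 FPKM value per Ensembl identifier and library; the unit was read from non-whole values and unequal totals. FPKM is relative, so a few abundant transcripts scale all others (30.3% to 33.2% of the totals were mitochondrial). Symbols came from a gene table naming 99.72% of identifiers, and positions from GENCODE M21 on GRCm38, the assembly mm10 denotes.

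Log2(FPKM + 1) was compared with limma 3.58.1 (R 4.3.3), trended and robust, two-sided, over 11644 genes that reached 1 FPKM in 3 or more libraries, with Benjamini-Hochberg adjustment, and the fit was tested on simulated data. Differences between a pair of genes were compared by exact permutation over libraries. The members and lists were chosen with earlier results of these data known. Named genes are the 10 members, up to 3 genes per list by smallest p or any called, and the 3 nearest profiles of 4 members; genes under the filter and other genes of known role (such as Slc6a4, Ffar2 and Dpp4) are named in addition, after their values were seen. The level of 1 enteric neuron marker is not reported here.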

Additional observations from a re-analysis of the deposited data

How the results depend on the processing

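The 9 tested genes kept a positive log2 difference in each of 16 alternatives that tested them (pseudocounts of 0.1 and 0.5, other filters, 4 scalings, another moderation, each library left out, and the replicate block), except Nts, which was -0.031 without atorvastatin replicate 2 and ranged up to 0.17 with another library left out (the cause was not tested). The other filters, the other moderation and the replicate block return the main estimate by design, so no sign could change there. The Gcg estimate was 0.69 with no filter, with limma without trend and robust options, and with the replicate block, but its call was lost there (limma adjusted p = 0.231, 0.0537 and 0.149), leaving 0 of the 9 called. With a library left out it was 0.62 to 0.79, and 0 to 1 of the 9 were called. Over all genes 47 were called, but 2 with no filter, 1 with the replicate block and 2 to 67 with a library left out. Qdpr lost its call in 6 of 16 alternatives and Resp18 in 5 of 15. The differences between pairs of genes kept their sign in all 9 alternatives, among which the replicate block returns the main value by design. They were 0.32 to 0.56 for Gcg minus Tph1, 0.10 to 0.32 for Pyy minus Tph1, 0.01 to 0.36 for Insl5 minus Tph1, 0.09 to 0.28 for Gcg minus Pyy and 0.20 to 0.40 for Gcg minus Insl5. However, the exact permutation p of Gcg minus Tph1 and Pyy minus Tph1 exceeded its floor of 0.1 at both smaller pseudocounts. Mcpt1 was called in 1 of 15 alternatives, without control replicate 3. Whether replicate numbers pair the libraries is not given. Deviations from group means correlated at -0.14, -0.11 and 0.01 between same-numbered libraries, across genes. With 3 libraries per group these correlations cannot decide it. The filter of 5 FPKM tested 4 of the 10 genes.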
